A study of Mus musculus with 19 samples.

Results

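Genes of the intrinsic, or mitochondrial, apoptosis pathway were compared between 2 populations of retinal ganglion cells (RGCs), the neurons whose axons form the optic nerve. They were the prosurvival genes Bcl2, Bcl2l1 and Mcl1, the effectors Bax and Bak1, the BH3-only genes Bbc3 and Bcl2l11, and the apoptosome genes Apaf1 and Casp9. They were chosen by symbol, each matched to a single Ensembl identifier of the GRCm38 annotation, and are 9 of the 47069 genes listed for each library. All 9 had enough counts to be tested, among 15941 tested genes.

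The cells came from retinas of mouse embryos (labelled strain C57/DBA F1, males and females pooled) at E16.5 (days of embryonic age), dissociated with enzymes and sorted for GFP, with 3 RNA-seq libraries per population. Ipsilateral RGCs (iRGCs), whose axons avoid the midline, carried the transgene Slc6a4-Cre, driven by the serotonin transporter gene, and the reporter Sun1-GFP, in which Cre removes a stop cassette in the Rosa26 locus and a GFP-tagged nuclear envelope protein is made from then on, also in descendants. Contralateral RGCs (cRGCs) carried the same reporter with Pou4f2-Cre, a Cre inserted into the Pou4f2 (Brn3b) gene of most RGCs, and their ventrotemporal (VT) retina was cut away before sorting. By the paper's account, iRGCs begin to be born later and were on average younger than cRGCs when collected. The driver, the retinal region, this mean age and the beginning of the library codes all differ with the population. Their contributions cannot be told apart. The counts on genes summed to 28193178 in the smallest library and 33638083 in the largest. Levels are counts scaled to library size with edgeR's TMM factors (CPM), and log2 fold changes are positive where the level was higher in iRGCs.

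In the intrinsic pathway, stress or loss of trophic support acts on a balance between Bcl2 relatives at the mitochondrial outer membrane. Prosurvival relatives hold the effectors Bax and Bak1 in check, BH3-only proteins bind the prosurvival proteins or the effectors through a short helix, the BH3 domain, and active effectors release cytochrome c, on which Apaf1 assembles the apoptosome that activates caspase-9. RGCs are produced in excess and many are lost in a wave of programmed death around birth, in which Bax is known to be needed. The activity of these proteins is largely set after transcription, and protein was not measured here.

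Of the 9 members, 7 are relatives that share the BH3 domain, and the coding stretch of its core is shown because the Bcl2 relatives bind each other through it. The stretches of 27 bases, or 9 codons, were read from the GRCm38 genome (RefSeq, GRCm38.p6) with the coding exons of GENCODE M21, and each lies within a single coding exon. Capitals mark the codons of the leucine and of the aspartate that all 7 share.
Bcl2, chr1:106712575-106712601, minus strand: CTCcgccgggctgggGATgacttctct
Bcl2l1, chr2:152829697-152829723, minus strand: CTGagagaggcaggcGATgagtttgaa
Mcl1, chr3:95659436-95659462, plus strand: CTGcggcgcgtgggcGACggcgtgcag
Bax, chr7:45465997-45466023, minus strand: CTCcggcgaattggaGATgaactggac
Bak1, chr17:27022531-27022557, minus strand: CTTgctctcatcggaGATgatattaac
Bbc3, chr7:16313773-16313799, plus strand: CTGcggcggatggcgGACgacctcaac
Bcl2l11, chr2:128147150-128147176, plus strand: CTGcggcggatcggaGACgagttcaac
The stretch of Bbc3 had 22 of its 27 bases in common with that of Bcl2l11, the other BH3-only gene. Bax had 19 in common with Bcl2l11, Mcl1 and Bak1 17 each, Bcl2 16 and Bcl2l1 15.

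The libraries were first checked against their labels. Slc6a4, the gene whose promoter drives Cre in iRGCs, had 2.06, 33.4 and 116 CPM in iRGC replicates 1, 2 and 3 and 48.1, 35.4 and 30.5 CPM in cRGC replicates 1, 2 and 3, so it was lowest in an iRGC library and the populations overlapped. Zic2, a transcription factor of ipsilateral neurons, had 134, 173 and 157 CPM in iRGCs and 57.0, 60.2 and 65.7 CPM in cRGCs, with no overlap. Values without iRGC replicate 1 are therefore given beside the members that passed the test. Markers of other cells, and of RGCs themselves, also moved with the population. All 16 retinal progenitor markers were higher in iRGCs, and their summed level was 10730, 9581 and 8665 CPM in the iRGC libraries and 1339, 2752 and 1961 CPM in the cRGC libraries, with Ccnd1 the most abundant. The 13 RGC markers summed to 3093, 4172 and 6610 CPM in iRGCs and 16900, 15230 and 18390 CPM in cRGCs, Ina being the most abundant, and 12 of them were lower in iRGCs. None of the markers in either list was at 0 in all libraries. Both lists hold genes that the paper itself ties to a projection side, so they do not mark cell type alone. It links Lhx2, Sox2 and Sox9 to iRGCs, and Pou4f1 and Sncg to cRGCs. In such bulk samples, fewer cells of a type and less RNA per cell cannot be told apart.

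All 25 cell cycle genes were higher in iRGCs as well, with sums of 5374, 4706 and 4516 CPM against 679, 1359 and 937 CPM, and Top2a the most abundant. Vascular markers were uneven among the iRGC libraries. The 11 endothelial markers summed to 477, 736 and 434 CPM in iRGCs and 87.7, 108 and 70.5 CPM in cRGCs. Their most abundant gene was Kdr, which retinal progenitors are known to make too, with 366, 320.5 and 418 CPM in iRGCs and 67.6 to 103 CPM in cRGCs. As a geometric mean, in which each gene weighs the same, the list had 10.7, 43.4 and 1.76 CPM in iRGC replicates 1, 2 and 3 and 1.01 to 1.27 CPM in cRGCs, and 2 of the 11 were at 0 in every cRGC library. The 8 mural markers, of which 2 were at 0 in every cRGC library, had a geometric mean of 14.5 CPM in iRGC replicate 2 and 3.17 and 4.53 CPM in replicates 1 and 3. Of the 11 dissociation response genes, 8 were higher in iRGCs, with sums of 1730, 3269 and 1279 CPM against 481, 584 and 661 CPM. Precursors of photoreceptors (5 of 5 tested markers, led by Otx2) and amacrine and horizontal cells (6 of 8, led by Tfap2b) were higher in iRGCs, with sums of 636 to 815 against 96.8 to 203 CPM and of 314 to 440 against 131 to 197 CPM. Microglia markers (3 of 6 tested higher in iRGCs, led by Csf1r) and erythroid markers (4 of 5, led by Hbb-bs) were low, with sums of at most 23.8 and 94.7 CPM, both in iRGC replicate 2. The part of each of these lists in the differences described here was not tested.

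**Figure D1:**
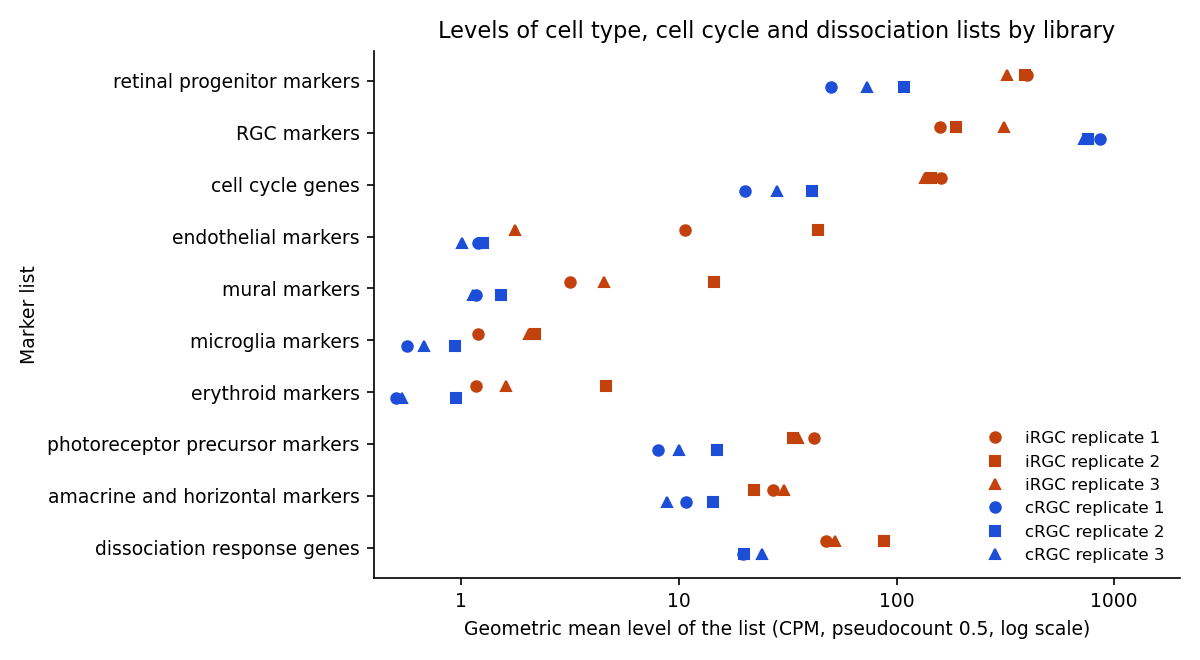
Geometric mean level of each marker list in each library (x axis, CPM with a pseudocount of 0.5, log scale); colours give the population and shapes the replicate. Progenitor and cell cycle lists lay higher in all 3 iRGC libraries, the RGC list lay higher in all 3 cRGC libraries, and the endothelial list reached 43.4 CPM in iRGC replicate 2.

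Among the 9 members, 3 were higher in iRGCs (Bcl2, Mcl1 and Bcl2l11), 3 were lower (Bcl2l1, Bbc3 and Casp9) and 3 did not pass the test (Bax, Bak1 and Apaf1), at an adjusted p under 0.1. Over all tested genes, 46.4% passed, 23.3% as higher and 23.1% as lower in iRGCs, so that passing was common among all genes and the 6 of 9 members past the threshold are to be read against it. The median log2 fold change of the members was -0.07, against -0.003 over all tested genes, and their median absolute log2 fold change was 0.52 against 0.60. In 6 members the ranges of the populations were disjoint, which held for 55.3% of tested genes, and these were the 6 members past the threshold. Bcl2, Bcl2l11 and Bbc3 were DEGs in the stricter sense of an absolute log2 fold change above 1 as well, which held for 23.1% of tested genes. Over all alternatives the highest adjusted p was 0.003 for Bcl2, 0.046 for Bcl2l1, 0.0109 for Bbc3, 0.0144 for Bcl2l11 and 0.00503 for Casp9, each from edgeR. For Mcl1 it was 0.172 (edgeR), and its call at an adjusted p under 0.1 was lost under 6 alternatives. Genes with opposite roles thus stood on both sides: a prosurvival gene and a BH3-only gene carried the largest increases in iRGCs, and a prosurvival gene, a BH3-only gene and the initiator caspase were lower.

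**Figure D2:**
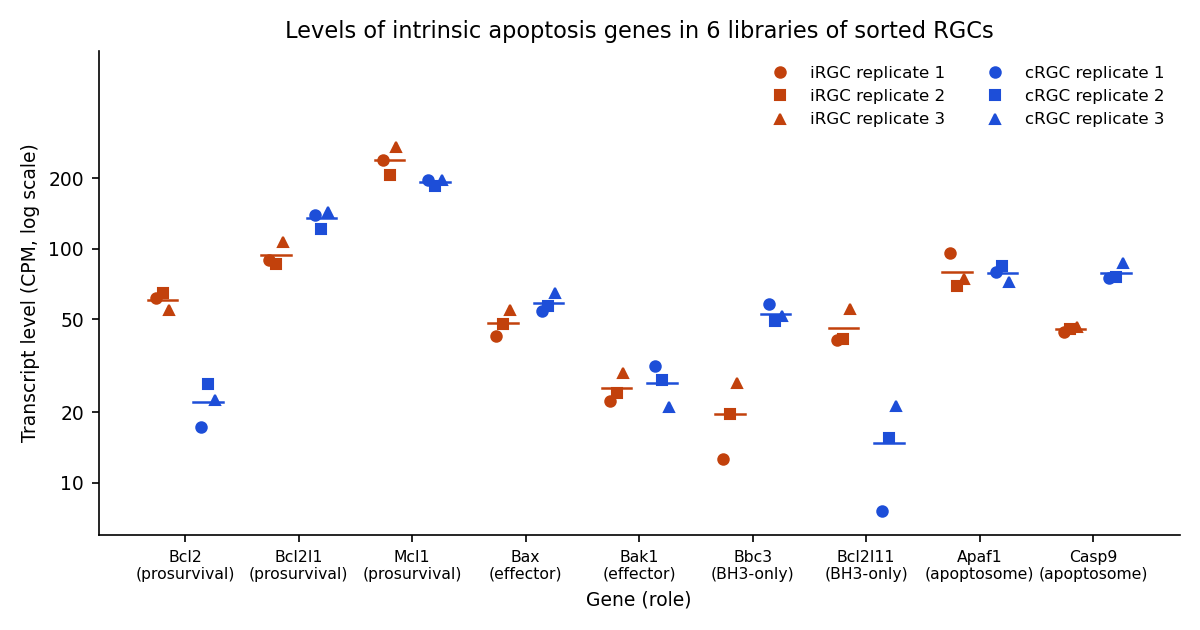
Transcript level of each member in each library (y axis, CPM, log scale), with the mean of 3 libraries as a line; colours give the population and shapes the replicate. Bcl2 and Bcl2l11 lay higher and Bbc3 and Casp9 lower in all 3 iRGC libraries, whereas Bax, Bak1 and Apaf1 overlapped.

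Bcl2, the founding prosurvival gene, lies on chromosome 1 from 106538178 to 106714274 on the minus strand, with 2 exon blocks. It had 61.3, 64.7 and 54.6 CPM in iRGC replicates 1, 2 and 3 and 17.4, 26.4 and 22.7 CPM in cRGC replicates 1, 2 and 3. Every iRGC library was more than 2-fold above every cRGC library. This was a log2 fold change of 1.44 (SE 0.17, edgeR adjusted p = 0.00038), or 2.72-fold, and without iRGC replicate 1 it was 1.43 (edgeR adjusted p = 0.00147). The absolute change was larger than that of 78.5% of tested genes. Of its exonic bases, 6.09% are shared with D630008O14Rik on the opposite strand, and whether the counting used the strand is not given in the sources used here.

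Bcl2l1, which encodes Bcl-xL, the prosurvival relative prominent in mature neurons, moved the other way. It lies on chromosome 2 from 152780668 to 152831728 on the minus strand, with 5 exon blocks, and had 89.7, 86.3 and 107 CPM in iRGCs and 139, 122 and 144 CPM in cRGCs. The lowest cRGC library was above the highest iRGC library, with a narrower gap than for Bcl2. In iRGCs the level was 1.43-fold lower, a log2 fold change of -0.52 (SE 0.12, edgeR adjusted p = 0.00994), and without iRGC replicate 1 it was -0.48 (edgeR adjusted p = 0.0316). The count of a gene sums its transcripts, so the long and the short splice form of Bcl2l1, known for opposite activities, were not told apart.

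Mcl1, a prosurvival gene whose protein is short-lived, had the highest counts of the 9. It lies on chromosome 3 from 95658788 to 95663176 on the plus strand, with 3 exon blocks, and had 240, 206 and 271 CPM in iRGCs and 197, 185 and 196 CPM in cRGCs. The populations were separated by a gap smaller than the spread among the iRGC libraries. A log2 fold change of 0.31 (SE 0.12, edgeR adjusted p = 0.0681), or 1.24-fold, separated the means. Without iRGC replicate 1 the log2 fold change was 0.31 (edgeR adjusted p = 0.123). The call was lost when any library other than iRGC replicate 2 was left out, with edgeR adjusted p from 0.114 to 0.172, and with no filter on low counts (edgeR adjusted p = 0.105), and over all alternatives the adjusted p lay between 0.00423 and 0.172.

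The effectors Bax and Bak1, which form the pores of the outer membrane, did not pass the test. Bax, on chromosome 7 from 45461697 to 45466898 on the minus strand with 5 exon blocks, had 42.4, 47.5 and 54.9 CPM in iRGCs and 54.3, 57.1 and 64.7 CPM in cRGCs. Only iRGC replicate 3 reached the range of the cRGC libraries. The log2 fold change was -0.28 (95% confidence interval -0.60 to 0.03, edgeR adjusted p = 0.143), so a decrease of up to 0.60 was compatible with these libraries. Bax passed the threshold without iRGC replicate 3 (-0.39, edgeR adjusted p = 0.0596) and when protein-coding genes alone were tested (-0.29, edgeR adjusted p = 0.0986), and over all alternatives the adjusted p lay between 0.0596 and 0.649.

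Bak1 lies on chromosome 17 from 27019810 to 27029009 on the minus strand, with 7 exon blocks. It had 22.5, 24.2 and 29.5 CPM in iRGCs and 31.5, 27.6 and 21.0 CPM in cRGCs, ranges that overlapped over most of their width. Their log2 fold change was -0.07 (95% confidence interval -0.52 to 0.37, edgeR adjusted p = 0.805). Bak1 shares 18.2% of its exonic bases with Ggnbp1 on the opposite strand, so its counts are less certain than those of Bax.

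The BH3-only genes moved in opposite directions. Bcl2l11 encodes Bim, which is known to be induced in neurons deprived of trophic factor and is able to bind all prosurvival relatives. It lies on chromosome 2 from 128126038 to 128162547 on the plus strand, with 6 exon blocks, and had 40.6, 41.4 and 55.0 CPM in iRGCs and 7.61, 15.5 and 21.4 CPM in cRGCs. The iRGC libraries were all above the cRGC libraries, among which replicate 1 was lowest by a wide margin. The log2 fold change of 1.62 (SE 0.33, edgeR adjusted p = 0.00449), or 3.07-fold, was the largest of the 9 in either direction with all libraries in the fit, and it was 1.70 without iRGC replicate 1 (edgeR adjusted p = 0.0101). This rank did not hold without iRGC replicate 3, where Bcl2l11 was at 1.45, below Bcl2, and Bbc3 at -1.72, or without cRGC replicate 1, where Bcl2l11 was at 1.30 and Bbc3 at -1.37. Within cRGCs the highest library exceeded the lowest 2.81-fold, the widest range of any member within a population. The geometric mean of the progenitor markers was 50.1, 109 and 73.4 CPM in cRGC replicates 1, 2 and 3. Bcl2l11 was also lowest in replicate 1, but highest in replicate 3. The cell cycle and photoreceptor precursor lists were lowest in cRGC replicate 1 too, and a relation of Bcl2l11 to any list was not tested.

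Bbc3 encodes Puma, a BH3-only protein best known as a direct target of p53. It lies on chromosome 7 from 16308393 to 16318205 on the plus strand, with 6 exon blocks, and had 12.6, 19.8 and 26.7 CPM in iRGCs and 57.8, 49.2 and 51.7 CPM in cRGCs. Every cRGC library was above every iRGC library, and the iRGC libraries differed among themselves up to 2.12-fold, against 1.18-fold in cRGCs. Bbc3 was thus 2.68-fold lower in iRGCs (log2 fold change -1.42, SE 0.25, edgeR adjusted p = 0.00199). Without iRGC replicate 1, where Bbc3 was lowest, it was -1.19 (edgeR adjusted p = 0.00198). The geometric mean of the RGC markers was 159, 188 and 312 CPM in iRGC replicates 1, 2 and 3, the same order as Bbc3. In cRGC replicates 1, 2 and 3 it was 859, 761 and 724 CPM, whereas Bbc3 was lowest in replicate 2. A relation of Bbc3 to these markers was not tested.

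Motifs were then looked for in the promoters, taken as the 250 bases before each RefSeq transcription start (RefSeq, GRCm38.p6). All 9 members had an entry, with 14 windows between them, of which 4 (2 of Bcl2l1, 1 of Apaf1 and 1 of Bak1) hold exon bases of GENCODE M21. The motifs were searched on both strands. They were GTAAACA, a forkhead motif, GGGCGG, a GC box, TTTCGCGC and TTTGGCGC, E2F motifs, and TGACGTCA, the cyclic AMP response element. The forkhead letters, in capitals with 10 bases on each side, are shown for Bcl2l11 and Bbc3, because these BH3-only genes had the largest change in each direction with all libraries in the fit. Each stretch comes from the only window of its gene with these letters, of 2 windows for Bcl2l11 and 3 for Bbc3. Neither stretch holds an exon base of GENCODE M21. In Bbc3 the letters lie on the other strand, as TGTTTAC, between an earlier and a later start of the gene.
Bcl2l11, chr2:128125801-128125827, plus strand: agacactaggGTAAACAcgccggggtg
Bbc3, chr7:16310084-16310110, plus strand: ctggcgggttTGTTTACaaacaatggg
GTAAACA was in 1 window of Bcl2l11 and 1 of Bbc3 and in no window of the other members, against 3.17% of all 32851 windows. GGGCGG was in 10 of the 14 member windows, of 7 members, against 32.7% of all windows. TTTCGCGC was in 1 window of Bcl2l1, all 250 bases of which are exon bases of GENCODE M21, against 0.256% of all windows. TTTGGCGC was in no member window (0.417% of all). TGACGTCA was in no member window either (1.55% of all). These matches are descriptions of the letters.

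Downstream of the mitochondria, the apoptosome genes did not move together. Apaf1, the scaffold that cytochrome c binds, lies on chromosome 10 from 90989311 to 91082770 on the minus strand with 28 exon blocks. It had 95.7, 69.3 and 74.3 CPM in iRGCs and 79.6, 84.1 and 72.0 CPM in cRGCs, and the cRGC libraries fell inside the range of the iRGC libraries. Its log2 fold change was 0.02 (95% confidence interval -0.31 to 0.35, edgeR adjusted p = 0.928).

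Casp9, the initiator caspase that Apaf1 activates, lies on chromosome 4 from 141793612 to 141815976 on the plus strand with 10 exon blocks. It had 44.3, 45.2 and 46.5 CPM in iRGCs and 74.7, 76.0 and 86.6 CPM in cRGCs. Among iRGC libraries its levels were the tightest of the members, with a 1.05-fold range, and no library of one population reached the other. Casp9 was 1.75-fold lower in iRGCs (log2 fold change -0.80, SE 0.11, edgeR adjusted p = 0.000741), and the change was -0.79 without iRGC replicate 1 (edgeR adjusted p = 0.00262). Of its exonic bases, 1.81% are shared with other genes on the opposite strand.

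**Figure D3:**
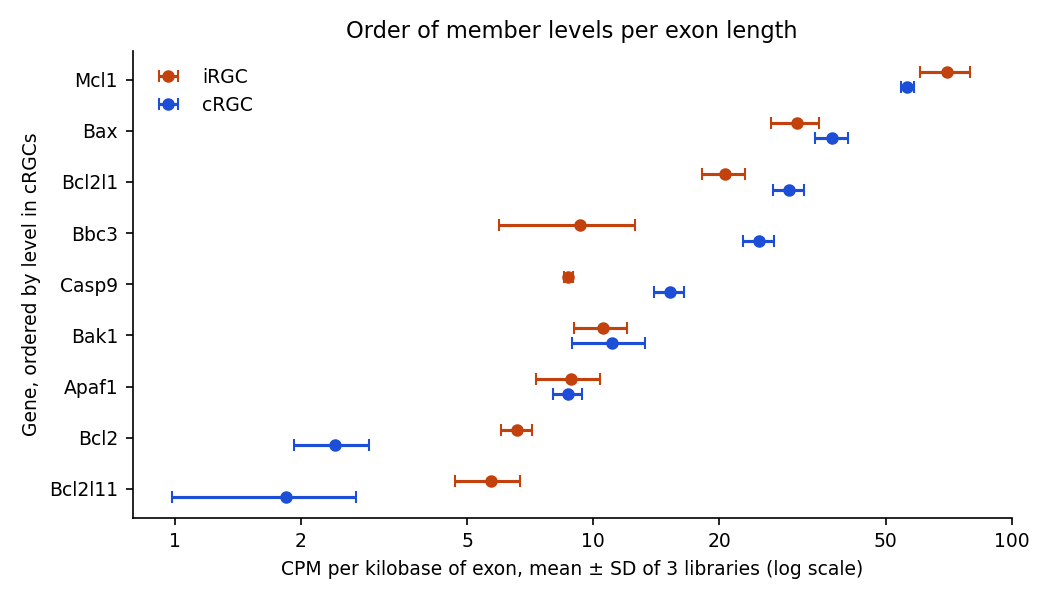
Level of each member per kilobase of exon (x axis, mean ± SD of 3 libraries, log scale), with genes ordered from the highest in cRGCs at the top to the lowest. Mcl1 was highest and Bcl2l11 lowest in both populations, and Bbc3 stood at 24.9 in cRGCs and 9.27 in iRGCs.

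Levels of different genes were compared as CPM per kilobase of exon. In cRGCs the order of the means was Mcl1, Bax, Bcl2l1, Bbc3, Casp9, Bak1, Apaf1, Bcl2 and Bcl2l11, from 56.3 ± 2.05 (SD, n = 3) for Mcl1 to 1.85 ± 0.862 for Bcl2l11. The ranges of 3 neighbouring pairs overlapped in cRGCs, those of Bcl2l1 and Bbc3, of Bak1 and Apaf1, and of Bcl2 and Bcl2l11. In iRGCs Mcl1, Bax and Bcl2l1 again led the order, at 69.95 ± 9.59, 30.6 ± 3.97 and 20.6 ± 2.45 CPM per kilobase. They were followed by Bak1, Bbc3, Apaf1 and Casp9, from 10.5 ± 1.52 to 8.72 ± 0.211, each of which overlapped its neighbour, and by Bcl2 and Bcl2l11, which also overlapped. Bbc3 was close to Bcl2l1 in cRGCs, at 24.9 ± 2.09 against 29.4 ± 2.52, but at 9.27 ± 3.32 in iRGCs it was in the group below.

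Ratios within a library do not depend on the scaling of library sizes. Per kilobase, Mcl1 made up 71.9 ± 1.71% (SD, n = 3) of the joined level of the 3 prosurvival genes in iRGCs and 63.9 ± 0.916% in cRGCs. The share of Bcl2l1 was 21.2 ± 0.835% in iRGCs and 33.3 ± 1.32% in cRGCs, and that of Bcl2 was 6.88 ± 1.36% and 2.76 ± 0.677%. These shares were computed after the values of the members had been seen. The ratio of Bcl2l1 to Bcl2 was 2.92, 2.67 and 3.92 in iRGC replicates 1, 2 and 3 and 16.0, 9.20 and 12.7 in cRGC replicates 1, 2 and 3. All cRGC libraries were above all iRGC libraries, by 3.94-fold between geometric means.

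The effectors over the prosurvival genes, (Bax + Bak1) / (Bcl2 + Bcl2l1 + Mcl1), gave 0.375, 0.467 and 0.433 in iRGCs and 0.528, 0.572 and 0.547 in cRGCs. The ratio was thus lower in each iRGC library, 1.30-fold between geometric means, with Mcl1 the largest term below the line. Bax over Bak1 overlapped, with 2.89, 3.00 and 2.85 in iRGCs and 2.64, 3.16 and 4.70 in cRGCs. Bcl2l11 over Bbc3, a ratio chosen after the values were seen, was 0.852, 0.553 and 0.545 in iRGCs and 0.0348, 0.0835 and 0.1096 in cRGCs, a 9.31-fold difference. In both populations every library had less Bcl2l11 than Bbc3 per kilobase. In iRGCs this order rests on the division by exon length, 8029 bases for Bcl2l11 and 2124 for Bbc3. In CPM every iRGC library had more Bcl2l11 than Bbc3, and every cRGC library had less. The ratios are given as descriptions and were not tested.

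**Figure D4:**
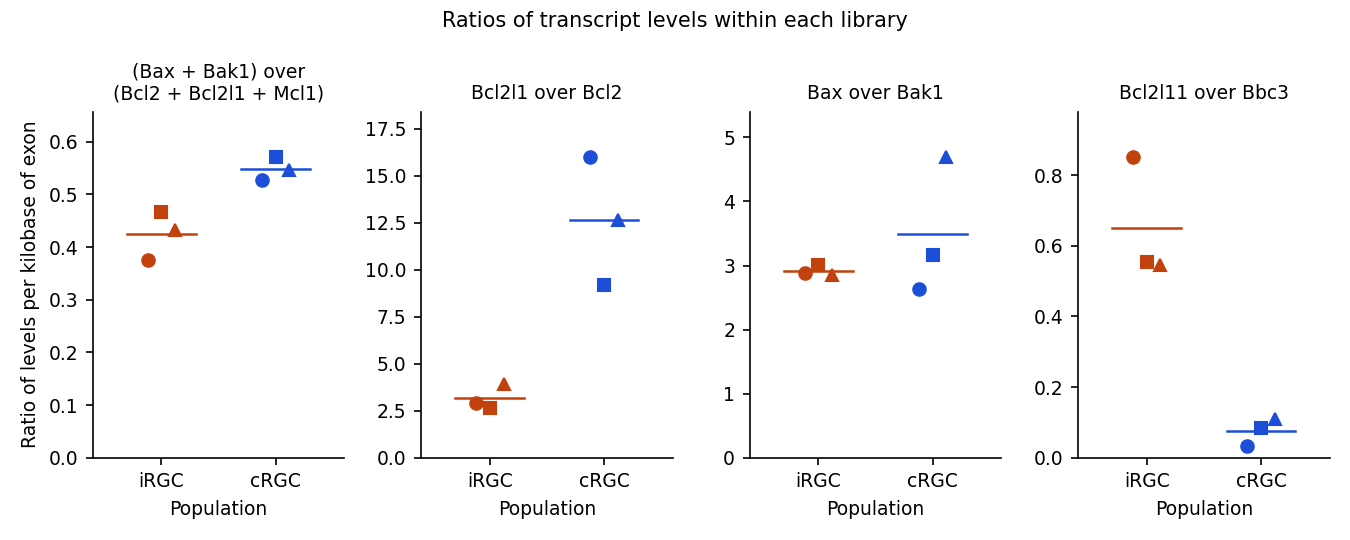
Ratios of levels per kilobase of exon within each library (y axis, linear from 0), with the mean of 3 libraries as a line; colours and shapes mark population and replicate as labelled on the x axis. The ratio of Bcl2l1 to Bcl2 was below 4 in all iRGC libraries and above 9 in all cRGC libraries, and Bax over Bak1 overlapped.

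The members were set beside 9 lists of genes of the same pathways, 75 genes in all, of which 53 were tested. iRGCs had higher levels of 20 and lower levels of 10, and 23 did not pass the test, which makes 56.6% past the threshold against 46.4% of all tested genes. Their median log2 fold change was 0.19. Other relatives of Bcl2 were few. Among the prosurvival ones, Bcl2l2, which encodes Bcl-w, was the only 1 of 5 tested, with 44.0, 44.6 and 47.0 CPM in iRGCs and 54.9, 51.2 and 56.3 CPM in cRGCs (log2 fold change -0.26, edgeR adjusted p = 0.108), and 13.3% of its exonic bases belong to another gene too. Bcl2l10 had no count in any library, which allows at most 3 counts in each. Bcl2a1a, Bcl2a1b and Bcl2a1d were at 0 counts as well, but they are near-identical copies that compete for reads, and 49.1% of the exonic bases of Bcl2a1b belong to another gene on the same strand, so their levels are uncertain. Of the divergent relatives, 2 of 4 tested genes were higher in iRGCs. Bcl2l12 had 22.9, 18.4 and 13.9 CPM in iRGCs and 1.31, 5.35 and 2.87 CPM in cRGCs (2.53, SE 0.47, edgeR adjusted p = 0.00274), but 33.4% of its exonic bases are shared with other genes. Without cRGC replicate 2, the highest of the cRGC libraries, its log2 fold change was 3.15. Bok, an effector-like relative, had a log2 fold change of -0.14 (edgeR adjusted p = 0.766).

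Of the other BH3-only genes, 1 of 7 tested was called higher in iRGCs, Pmaip1, which had few counts and is described below. Another 2 were lower, and the median log2 fold change of the 7 was -0.20. Hrk, which encodes a BH3-only protein of neurons, had 5.18, 5.32 and 7.69 CPM in iRGCs and 24.2, 21.2 and 21.0 CPM in cRGCs (log2 fold change -1.87, SE 0.23, edgeR adjusted p = 0.000423). It thus stood on the same side as Bbc3. Bid, which links death receptors to the mitochondria, had 5.85, 8.81 and 13.3 CPM in iRGCs and 20.2, 22.4 and 22.6 CPM in cRGCs (-1.22, SE 0.29, edgeR adjusted p = 0.00945), with 17.7% of its exonic bases shared with Bcl2l13. Bad had a log2 fold change of -0.64 (edgeR adjusted p = 0.139) and Bmf one of 0.08 (edgeR adjusted p = 0.793).

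Pmaip1, which encodes Noxa, another target of p53, was counted 80, 43 and 26 times in the iRGC libraries and 0, 3 and 0 times in the cRGC libraries. Only its iRGC libraries brought it past the low-count filter, so its call as higher in iRGCs (edgeR adjusted p = 0.0194) is given as a description. The ratio of the summed counts, scaled by library size, was 44.9, with a 95% exact binomial interval of 15.1 to 220.1 that covers counting error only. All 3 cRGC counts came from replicate 2, and without that library, an alternative chosen after the data were seen, Pmaip1 was at least 29.7-fold higher in iRGCs, against a floor of 3 counts over the population. Even in iRGCs it had at most 2.57 CPM, far below Bcl2l11. Bik, too low to be tested, had 0, 32 and 54 counts in iRGCs and 3, 7 and 6 in cRGCs.

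Of the other caspase genes, 3 are described here, each of which was higher in iRGCs. Casp8, the initiator of the death receptor pathway, had 14.7, 10.9 and 8.83 CPM in iRGCs and 0.923, 2.38 and 0.613 CPM in cRGCs (log2 fold change 3.13, SE 0.54, edgeR adjusted p = 0.00178). Without cRGC replicate 2, the highest of the cRGC libraries, it was 3.92. Casp6 had 30.8, 26.6 and 23.8 CPM in iRGCs and 12.99, 13.8 and 12.6 CPM in cRGCs (1.04, edgeR adjusted p = 0.00167), and Casp2, the initiator-like caspase, had 120, 115 and 109 CPM against 77.9, 77.0 and 82.0 CPM (0.54, edgeR adjusted p = 0.00278).

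Of the inhibitor of apoptosis (IAP) genes, 2 of 4 tested were higher in iRGCs. Xiap, a direct inhibitor of caspases, had 141, 130 and 108 CPM in iRGCs and 85.1, 83.7 and 76.3 CPM in cRGCs (log2 fold change 0.63, SE 0.13, edgeR adjusted p = 0.00396). Birc5, or survivin, which also acts in mitosis, had 69.2, 66.7 and 56.8 CPM against 5.54, 15.1 and 12.7 CPM (2.53, SE 0.32, edgeR adjusted p = 0.000466), beside the 25 cell cycle genes that were all higher in iRGCs. Birc2 and Birc6 did not pass, at 0.14 and -0.08. Of cytochrome c and the other mitochondrial death factors, 1 of 5 tested was higher in iRGCs, Aifm1 at 0.41 (edgeR adjusted p = 0.0566), a call that was lost without iRGC replicate 2 or any cRGC library (edgeR adjusted p from 0.101 to 0.201, and from 0.0127 to 0.201 over all alternatives). Diablo, whose protein relieves IAP inhibition, had a log2 fold change of 0.22 (edgeR adjusted p = 0.200), Htra2 one of -0.05 and Cycs, cytochrome c itself, one of -0.64 (edgeR adjusted p = 0.206). Cycs had at most 5.997 CPM in any library, and as it has many near-identical pseudogenes that compete for reads, its level is uncertain. Diablo and Htra2 share 23.5% and 43.7% of their exonic bases with genes on the opposite strand, as do Bad (20.5%) and Map3k12 (19.3%) of the other lists.

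**Figure D5:**
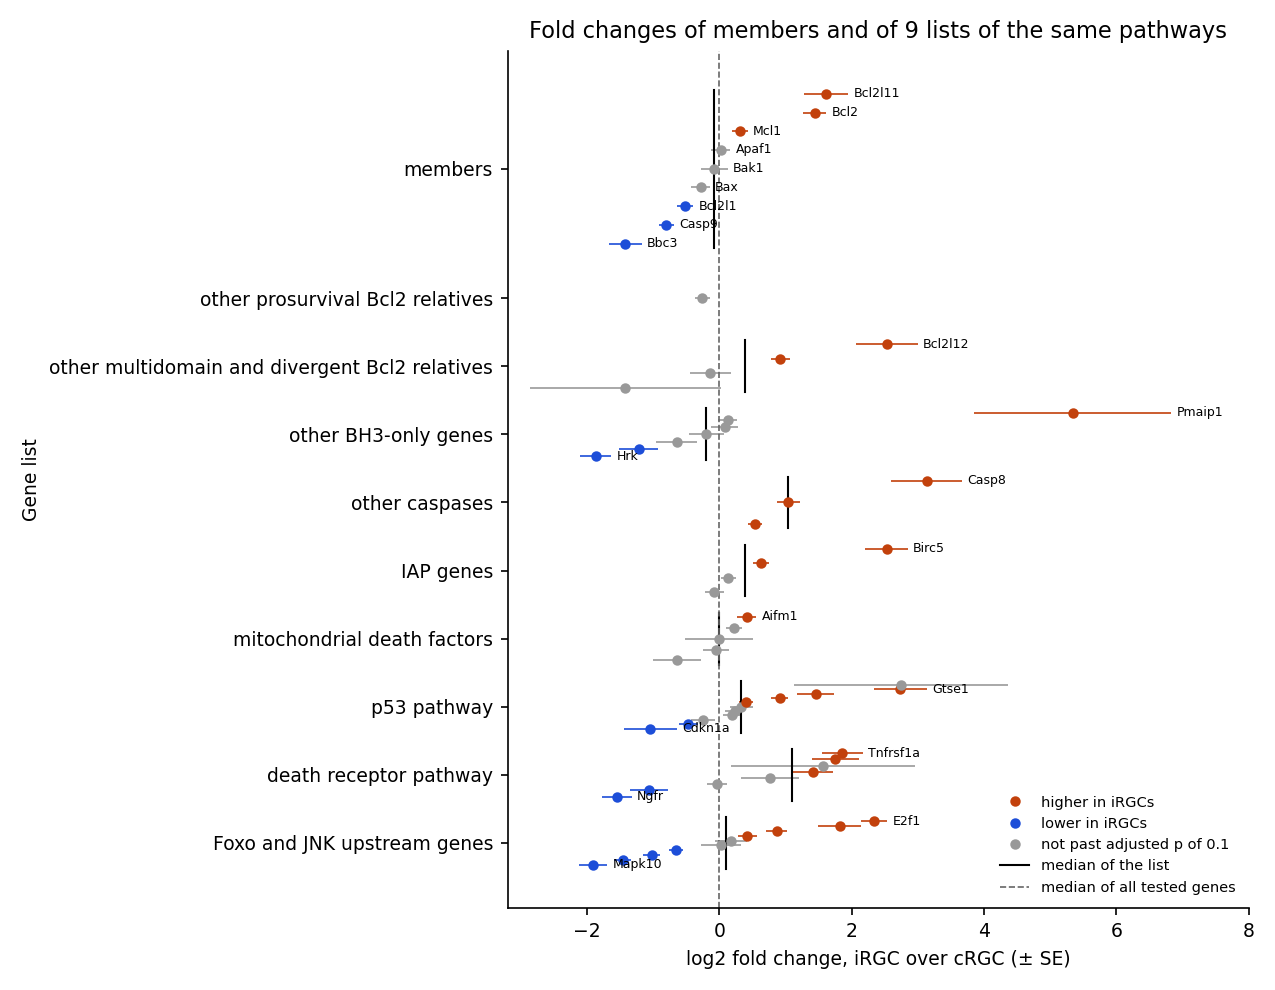
Log2 fold change of iRGCs over cRGCs (x axis, ± SE) of the 9 members and of the tested genes of 9 lists; colours give the side of the threshold, black lines the median of each list and the dashed line that of all tested genes. Casp8 and Birc5 lay above 2 and Hrk, Mapk10 and Ngfr below -1.5; the position of Pmaip1 rests on 3 counts in cRGCs.

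Upstream, genes of the p53 pathway were not all on 1 side. Levels in iRGCs were higher for 4 of 11 tested and lower for 2, with a median log2 fold change of 0.33. Trp53 itself had 76.4, 72.3 and 61.0 CPM in iRGCs and 35.5, 40.0 and 36.0 CPM in cRGCs (0.91, SE 0.13, edgeR adjusted p = 0.000785), and Mdm2, its inhibitor and target, was higher too (0.40, edgeR adjusted p = 0.0158). Among targets, Pmaip1 was called higher on the few counts described above, whereas Bbc3 and Cdkn1a, the cell cycle inhibitor p21, were lower in iRGCs. Also in this list, Sesn2 was higher (1.45, edgeR adjusted p = 0.00294) and Ccng1 lower (-0.47, edgeR adjusted p = 0.032) in iRGCs, both named after their values were seen. Cdkn1a had 5.92, 17.2 and 22.3 CPM in iRGCs and 27.0, 31.96 and 34.7 CPM in cRGCs (-1.05, SE 0.40, edgeR adjusted p = 0.0677), lowest by far in iRGC replicate 1, where Bbc3 was lowest as well. Without that replicate its log2 fold change was -0.66 (edgeR adjusted p = 0.0341), and its call was lost without iRGC replicate 2, cRGC replicate 2 or cRGC replicate 3 and with library totals alone, with an adjusted p between 0.0189 and 0.157 over all alternatives. Gtse1, a gene of G2 and mitosis that opposes p53, was higher in iRGCs (2.73, SE 0.40, edgeR adjusted p = 0.00082), and the log2 fold change was 3.38 without cRGC replicate 2.

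Of 8 tested genes of the death receptor pathway, 3 were higher and 2 lower in iRGCs. Tnfrsf1a, the main receptor of tumour necrosis factor, had 19.3, 16.0 and 11.9 CPM in iRGCs and 4.08, 3.28 and 5.65 CPM in cRGCs (1.86, SE 0.31, edgeR adjusted p = 0.00148). Cflar, the inhibitor of caspase-8 activation, was also higher (1.75, SE 0.35). The neurotrophin receptor gene Ngfr had 55.7, 73.9 and 107 CPM in iRGCs and 206, 221 and 265 CPM in cRGCs (-1.55, SE 0.22, edgeR adjusted p = 0.000783). The adaptor Fadd had a log2 fold change of 0.77 (edgeR adjusted p = 0.203), and Fas, too low to be tested, had 0, 23 and 6 counts in iRGCs and 0 in each cRGC library. Most counts of Fas came from iRGC replicate 2. The sums of the endothelial, mural, microglia, erythroid and dissociation response lists were also highest in that library. Those of the other marker lists were not, and a link between Fas and any list was not tested. Fasl, named after its values were seen, had 0 counts in each iRGC library and 11, 6 and 23 in cRGCs, at least 14.8-fold lower in iRGCs against a floor of 3 counts over the population, which covers counting error only. Without cRGC replicate 3, which held 23 of the 40 counts, also an alternative chosen after the data were seen, this bound was 9.81-fold.

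The Foxo and JNK genes, which are known to act on Bcl2l11 and Bbc3 in neurons, stood on both sides. Of the 10 genes tested in this list, 4 were higher in iRGCs and 4 lower. Mapk10, the JNK most restricted to neurons, had 26.8, 30.0 and 44.9 CPM in iRGCs and 151, 108 and 123 CPM in cRGCs (-1.91, SE 0.21, edgeR adjusted p = 0.000284), and the other JNK genes Mapk8 (-1.02) and Mapk9 (-0.66) and the JNK pathway kinase gene Map3k12 (-1.46) were lower as well. Their target Jun was higher in iRGCs (0.87, edgeR adjusted p = 0.00223), with 357 CPM in replicate 2, where the dissociation response genes were highest too. Foxo4 (1.82, edgeR adjusted p = 0.00202) and Foxo3 (0.42, edgeR adjusted p = 0.0495) were higher in iRGCs, and Foxo1 did not pass (0.18). For Foxo3 the ranges of the populations overlapped, whereas for Foxo4 they did not. E2f1, a cell cycle transcription factor with proapoptotic targets, had 126, 84.1 and 111 CPM in iRGCs and 16.9, 24.6 and 21.7 CPM in cRGCs (2.34, SE 0.20, edgeR adjusted p = 0.000205). Foxo1, Foxo3, Foxo4, Mapk8, Mapk9, Map3k12 and Jun were on the list but were picked for mention after their values were seen.

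Finally, the genes most like Bcl2l11 and Bbc3 across the 6 libraries were listed, by Pearson's r of log2 CPM over 10275 genes with a mean of at least 10 CPM. With 6 libraries that fall into 2 populations and share their sizes and cell mixtures, such values describe a pattern only. Closest to Bcl2l11 were Rpl27a (r = 0.997), a ribosomal protein gene with many pseudogenes, Cab39l (0.995) and the histone chaperone gene Asf1a (0.994). Asf1a had 53.1, 54.8 and 65.1 CPM in iRGCs and 26.6, 34.9 and 38.6 CPM in cRGCs, so it was also highest in iRGC replicate 3 and lowest in cRGC replicate 1. Closest to Bbc3 were Acat1 (r = 0.9996), a gene of ketone body metabolism, the axonal adhesion gene Cntn5 (0.999) and Nckipsd (0.999). Acat1 had 64.0, 84.3 and 104 CPM in iRGCs and 166, 147 and 154 CPM in cRGCs, the same order of libraries as Bbc3, over a smaller range.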

How the data were processed

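Reads were mapped by the authors to mm10 (HISAT2 2.1.0) and assigned to Ensembl genes of GRCm38 (HTSeq 0.11.1), and raw counts per gene were deposited, 1 table per library. HTSeq's tallies that name no gene, 42.3% to 46.0% of all tallies, stayed out of library sizes and tests. Symbols, positions and exon lengths came from GENCODE M21. The test was the quasi-likelihood test of edgeR 4.0.16 in R 4.3.3 (filterByExpr with a minimum count of 10, TMM, two-sided, without a block) over all tested genes with Benjamini-Hochberg adjustment, called at an adjusted p under 0.1 as in the study, which used DESeq2 1.26.0. The SE is the absolute log2 fold change over the square root of F. The 3 libraries of a population are labelled replicates of pooled embryos, and p-values measure the spread between these samples only. The biological coefficient of variation was 36.3%. Alternatives were DESeq2 1.42.0 and its size factors, limma 3.58.1 voom, upper quartile factors, library totals alone, other filters, the replicate block, protein-coding genes alone and each library left out. The fits were tested on simulated data. The members and lists were chosen with earlier results of these data known. Besides the members and a set of pathway genes, the named genes are those of each list with the largest change past the threshold in each direction, and the 3 genes most like the members with the largest change in each direction. List levels used a pseudocount of 0.5 CPM. Figures were drawn with matplotlib 3.10.9. The 13 ATAC-seq samples were not analysed here. Some listed genes are not reported here and were left out of the counts of their lists.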

Additional observations from a re-analysis of the deposited data

How the results depend on the processing

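The members past the threshold and their directions were the same 6 with DESeq2's size factors, upper quartile factors, library totals alone, DESeq2's test, limma voom, at least 10 counts in every library and the replicate block. Mcl1 was no longer called without a filter on low counts, at an adjusted p under 0.05 and when any library other than iRGC replicate 2 was left out, and Bax joined with protein-coding genes alone and without iRGC replicate 3. Leaving out libraries gave 2 to 3 members higher and 3 to 4 lower in iRGCs, 3148 to 3563 genes higher and 3068 to 4040 genes lower. With an absolute log2 fold change above 1 required, 1 member was lower (Bbc3) and 2 higher, and 1930 genes were higher and 1758 lower. The same-numbered libraries did not deviate together (r = -0.01, -0.02 and -0.06 for replicates 1, 2 and 3). As deviations from means of 3 libraries, these values cannot settle whether such libraries were prepared together. The replicate block changed no call of a member, lost that of Rpl27a and left 3316 genes higher and 3435 lower. Library totals alone moved the median of all genes to 0.20 on the log2 scale and the share of calls higher in iRGCs from 50.1% to 64.2%. There the values of Bak1 (0.13), Bok (0.071), Birc6 (0.14) and Htra2 (0.15) turned positive, while relative to that median they were -0.08, -0.13, -0.07 and -0.05. The other reversals were of values that passed no test, on leaving out single libraries: the log2 fold change lay from -0.21 to 0.048 for Bak1, from -0.13 to 0.11 for Apaf1, from -0.49 to 0.026 for Bok, from -0.012 to 0.16 for Bmf, from -0.24 to 0.032 for Birc6 and from -0.17 to 0.13 for Htra2. The cause was not tested. Among the other named genes, Aifm1, Cdkn1a and Rpl27a lost their call in 15 fits together, and Bcl2l2, Bad, Birc2, Diablo and Fadd gained it in 7. At this depth and with 3 libraries per population, the members' log2 fold changes had an SE of 0.11 to 0.33.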
